A study of Homo sapiens with 12 samples.

Results

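The enzymes that carry squalene to cholesterol were described here through 9 genes, SQLE, LSS, CYP51A1, TM7SF2, MSMO1, NSDHL, HSD17B7, EBP and DHCR7. They were taken by name from a list of the pathway, with no use of measured values, and all 9 were found among the 19251 genes of the deposited files. All 9 passed the filter on low values (a value of at least 10 in at least 3 libraries), in every group, and entered the test with 17616 genes in all. The study exposed 2 established human ovarian cancer cell lines to ovarian cancer ascites, an abdominal fluid that builds up in this disease, to see what changes in their transcripts. CAOV3 is labelled as a high grade serous epithelial line and TOV21G as an epithelial clear cell line, both wild type. Control wells of each line held 1.5 mL of DMEM with 10% fetal bovine serum and antibiotics and received no treatment, and no addition of a mock fluid to them is described. Ascites wells held the same medium and received 150 µL of ascites (10%) for 16 h. Each of the 4 groups held 3 RNA-seq libraries. The labels name neither the donor or number of ascites samples nor separate cultures, so the p-values measure the spread between these libraries, which may be technical.

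Cholesterol is made in the endoplasmic reticulum from acetyl-CoA, through mevalonate and the linear hydrocarbon squalene. Squalene is oxidised and folded into lanosterol, the earliest sterol, and the lanosterol is then trimmed of methyl groups and rearranged in its double bonds until cholesterol is left. The genes of this section are textbook targets of SREBP-2, a transcription factor that is held in the endoplasmic reticulum when sterols are plentiful and released to the nucleus when they are scarce. These statements are background and were not tested in these data.

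The order of the reactions gives each gene its role. SQLE encodes squalene epoxidase, which adds oxygen to squalene and is a rate-limiting enzyme of the section, and LSS encodes lanosterol synthase, which closes the rings. CYP51A1 encodes the cytochrome P450 that takes off the earliest of the methyl groups to go, and TM7SF2 encodes a sterol reductase that acts on the double bond left behind. MSMO1, NSDHL and HSD17B7 encode the oxidase, the dehydrogenase and the ketoreductase that together remove the remaining methyl groups. EBP encodes the isomerase that moves a double bond in the ring system, and DHCR7 encodes 7-dehydrocholesterol reductase, which makes cholesterol in a last step. LBR, which overlaps TM7SF2 in activity, and SC5D, which acts late in the pathway, were not in the list and are given further on.

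The DNA just before RefSeq starts of these genes is shown for its motifs. SREBP-2 is known to act with the factors NF-Y, which binds CCAAT, and Sp1, which binds GGGCGG. RefSeq windows of 250 bases before an annotated start (GRCh38.p14) were used for 8 of the 9 genes, with 2 starts for DHCR7. The windows of CYP51A1, EBP and DHCR7 lie inside the gene spans of GENCODE release 29 given below, whose outer ends are further upstream. No window of SQLE was used, so the motif counts say nothing about this gene. CCAAT was found on either strand in 7 of the 8 genes (7 of 9 windows), against 32.01% of 35116 RefSeq promoter windows of the same length. GGGCGG was found in 7 of the 8 (7 of 9 windows), against 42.64% of the RefSeq windows. CYP51A1 lacked CCAAT and NSDHL lacked GGGCGG. Neither the sterol element TCACNCCAC (0.88% of windows) nor the variant ATCACNNCA (1.93%) occurred in any of the 8, which says only that these letters are not in these windows. CCAAT matches numbered 5 in NSDHL, 4 in MSMO1, 3 in EBP and 2 at the nearer start of DHCR7, and a pair of those in NSDHL overlapped. A match is a description of letters and shows no binding. Printed are 3 genes called lower with ascites in at least 1 line (LSS, MSMO1, DHCR7) and HSD17B7, which was called in neither. TM7SF2, also called lower in CAOV3, is not printed because the part of its window without annotated untranslated region was too short. NSDHL, with the most CCAAT matches, was called in neither line as well, and a link between motifs and response was not tested. Each stretch runs 5′ to 3′ on the strand of the gene. Bases that GENCODE release 29 annotates as untranslated region are left out, so that matches nearer the start are not shown. Capitals mark CCAAT (or ATTGG, its reverse complement) and GGGCGG (or CCGCCC). The LSS stretch is chr21:46228825-46229024 (minus strand), the MSMO1 stretch chr4:165327419-165327622 (plus), the DHCR7 stretch chr11:71448436-71448643 (minus) and the HSD17B7 stretch chr1:162790452-162790701 (plus).
LSS: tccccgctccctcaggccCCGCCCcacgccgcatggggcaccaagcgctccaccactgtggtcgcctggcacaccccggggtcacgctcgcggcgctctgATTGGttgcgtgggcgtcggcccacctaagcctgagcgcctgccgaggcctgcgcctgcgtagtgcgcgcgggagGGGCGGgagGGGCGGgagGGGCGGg
MSMO1: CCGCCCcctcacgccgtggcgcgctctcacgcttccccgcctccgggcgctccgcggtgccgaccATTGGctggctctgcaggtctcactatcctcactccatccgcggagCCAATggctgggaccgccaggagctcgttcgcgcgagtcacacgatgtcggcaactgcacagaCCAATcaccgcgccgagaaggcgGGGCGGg
DHCR7: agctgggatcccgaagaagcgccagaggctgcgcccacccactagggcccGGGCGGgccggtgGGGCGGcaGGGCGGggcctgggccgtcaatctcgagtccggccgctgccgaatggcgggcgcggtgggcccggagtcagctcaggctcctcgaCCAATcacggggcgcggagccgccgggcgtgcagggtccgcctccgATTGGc
HSD17B7: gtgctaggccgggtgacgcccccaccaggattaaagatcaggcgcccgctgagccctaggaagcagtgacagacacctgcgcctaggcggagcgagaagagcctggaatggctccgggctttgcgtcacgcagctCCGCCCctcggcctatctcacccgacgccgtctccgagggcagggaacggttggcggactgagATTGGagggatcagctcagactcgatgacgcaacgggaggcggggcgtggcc

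The windows of the printed genes differ in their letters, and matches are given here over all 250 bases. The printed LSS stretch ends at base 51 before the start and that of MSMO1 at base 47. Matches nearer the start are therefore counted here but are not in the print. In LSS the GGGCGG matches stand in a tandem row, with 5 of its 6 matches between bases 75 and 33 before the start and 1 CCAAT match at bases 150 to 146. MSMO1 has CCAAT matches spread from base 185 to base 30 before the start. HSD17B7 has 1 match to each motif.

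Read depth was 26697609 to 34491304 reads per library, with 18153 to 18426 of the listed genes having a read, and the values below are normalised counts (reads divided by a size factor for the library). Replicates within a group were not copies of each other, since their chi-square over its degrees of freedom was 1.81 or more (highest 22.6). All 5 epithelial markers had reads in all libraries, although CDH1 was at 6.29 to 17.3 normalised counts in TOV21G. The clear cell marker NAPSA was at 11.9 normalised counts or less in all libraries. The serous markers were low in the line labelled serous, with PAX8 at 18.2 to 25.6, WT1 at 2.15 to 8.18 and MUC16 at 5.12 to 12.9 in CAOV3. In TOV21G, PAX8 was at 6797 to 9342 and WT1 at 219 to 239, both higher than in CAOV3. WT1 in both lines, the low PAX8 and MUC16 in CAOV3, and the low NAPSA in TOV21G went against the labels of the lines. Of 15 markers of cells that ascites can carry, 8 were among the genes given. The leukocyte pair CD14 and LYZ summed to 117 to 134 normalised counts in CAOV3 controls and 101 to 125 with ascites, and to 8.39 to 13.01 and 11.6 to 20.4 in TOV21G, where LYZ was at 0. Mesothelial markers (3 of 3) summed to 62.4 to 75.2 and 47.0 to 67.5 in CAOV3, and to 485 to 558 and 466 to 550.4 in TOV21G. Fibroblast markers (2 of 3) summed to 701 to 762 and 668 to 703 in CAOV3, and to 1822 to 2033 and 1767 to 1922 in TOV21G, where COL3A1 was at 0. PECAM1, the endothelial marker at hand, was at 11.3 or less throughout. The part of other cells in the results was not tested.

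The main question was how the genes responded to ascites in CAOV3. In this line SQLE, LSS, TM7SF2 and MSMO1 fell, to between 0.731 (MSMO1) and 0.827 (TM7SF2) of the control level, a fold on the scale of value + 1. CYP51A1, NSDHL, HSD17B7 and EBP had folds of 0.981, 0.942, 0.916 and 0.968 and did not pass the test. DHCR7 had a fold of 0.857, without passing it. The number that fell, 4 of 9, stands beside a background of 1.1% of all tested genes called lower in CAOV3 (193 of 17616). All 9 differences were negative, with a median of -0.22 on the scale of log2(value + 1) against -0.0021 over all tested genes. Of those 17616 genes, 8936 had a negative difference. Called means an adjusted p under 0.05 from limma, with Benjamini-Hochberg adjustment over all tested genes. In bulk samples, fewer cells with a transcript and less of it per cell cannot be told apart.

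SQLE (chromosome 8, 124998497 to 125022283 in GENCODE release 29 on GRCh38, plus strand) had 2197, 2224 and 2468 normalised counts in the CAOV3 control libraries and 1751, 1733 and 1765 with ascites. The ascites libraries all lay below the lowest control, by at least 432 counts, and close together. The log2 difference was -0.39 ± 0.06 (SE), with an adjusted p of 0.00419 from limma.

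LSS (chromosome 21, 46188141 to 46228824, minus strand) had 2648, 2499.8 and 2682 normalised counts in CAOV3 controls and 1993, 2056 and 2159 with ascites, again without overlap. Its log2 difference was -0.33 ± 0.06 (limma adjusted p 0.00653). Since 7.88% of its exon bases are shared with genes on the opposite strand and the strandedness of the libraries is not given in the sources used here, its counts carry that uncertainty.

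MSMO1 (chromosome 4, 165327623 to 165343160, plus strand) showed the largest fall among the 9 genes in CAOV3. It had 1545, 1655 and 1754 normalised counts in controls and 1229.6, 1165 and 1225 with ascites. The log2 difference was -0.45 ± 0.06 (limma adjusted p 0.00102), and 5.06% of all tested genes had a difference as negative or more so.

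TM7SF2 (chromosome 11, 65111845 to 65116384, plus strand) had 1072.5, 1126 and 1157 normalised counts in CAOV3 controls and 932, 884 and 958 with ascites. The groups did not overlap, and the log2 difference was -0.27 ± 0.06 (limma adjusted p 0.0314). This call was the least firm of the 4: it was lost on leaving out any 1 of the 6 CAOV3 libraries, with adjusted p-values up to 0.135.

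DHCR7 (chromosome 11, 71428193 to 71452868, minus strand) had 4619, 4632 and 4631 normalised counts in CAOV3 controls and 3928, 3949 and 4019 with ascites. The ascites libraries lay well below the controls, and the CV of the controls, 0.152%, was smaller than the 1.52% that the sampling of reads alone gives. The log2 difference was -0.22 ± 0.07, and limma's adjusted p was 0.153. The gene was called lower by edgeR (adjusted p 0.0242), by DESeq2 (0.0141) and by limma on the CAOV3 libraries alone (8.39e-05), where the wider spread of the TOV21G libraries does not enter its error.

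The remaining 4 genes overlapped between the CAOV3 groups. EBP (chromosome X, 48521158 to 48528716), at 2483, 2522 and 2356 in controls and 2391, 2367 and 2362 with ascites, had a log2 difference of -0.05 with a 95% interval of -0.17 to 0.07. NSDHL (chromosome X, 152830967 to 152869729) had 1540.1, 1413 and 1432 normalised counts in controls and 1332, 1365 and 1433 with ascites, so that 1 ascites library reached the level of the controls. CYP51A1 (chromosome 7, 92112151 to 92134803) had the highest CV of the 9 genes in CAOV3 controls (14.6%), at 502, 546 and 408 normalised counts, with 447, 468 and 503 in ascites. HSD17B7 (chromosome 1, 162790702 to 162812817) had the fewest reads of the 9, with 118, 117 and 138 normalised counts in controls and 103, 104 and 136 with ascites. Of the 9 genes, 5 had all ascites libraries below all controls in CAOV3, against 12.8% of all tested genes.

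**Figure D1:**
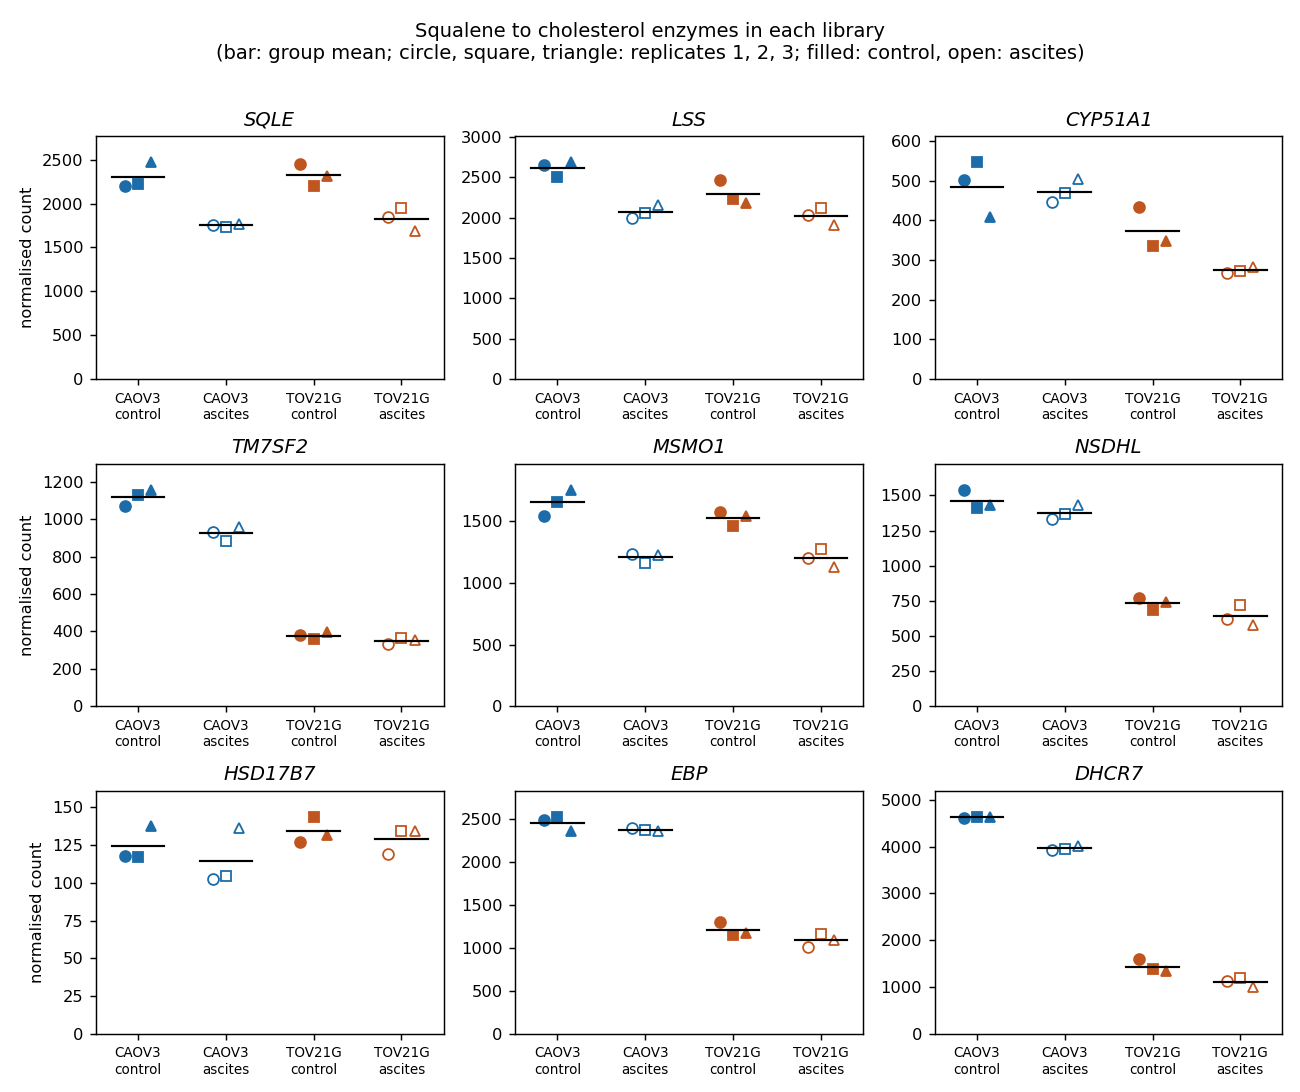
Normalised counts (vertical axis, linear, from 0) of the 9 enzyme genes in each of the 12 libraries, with replicates 1, 2 and 3 as circle, square and triangle, filled for control and open for ascites, and a bar at each group mean. In SQLE and MSMO1 the ascites libraries lie below the controls in both lines, and TM7SF2, NSDHL, EBP and DHCR7 sit lower in TOV21G than in CAOV3.

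The same question was asked of TOV21G. Here SQLE, MSMO1 and DHCR7 fell, to 0.786, 0.788 and 0.770 of the control level, and LSS and TM7SF2, which fell in CAOV3, did not pass the test. The 3 of 9 stand beside 0.267% of all tested genes called lower in this line (47 of 17616). Again all 9 differences were negative, with a median of -0.19 against -0.018 over all tested genes. Of those 17616 genes, 9881 had a negative difference. The calls lean on the joint fit of both lines: with TOV21G fitted alone none of the 9 was called by limma (6 at an unadjusted p under 0.05), and leaving out 1 of the 12 libraries gave 0 to 3 calls, with 0 without control 1, control 3, ascites 1 or ascites 3 of TOV21G. edgeR on the recovered reads called 3 and DESeq2 called 4.

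SQLE had 2449.7, 2204 and 2313 normalised counts in TOV21G controls and 1846, 1951 and 1683 with ascites. The groups did not overlap, and the log2 difference was -0.35 ± 0.06 (limma adjusted p 0.0260, and 0.114 with TOV21G fitted alone). MSMO1 had 1573, 1459 and 1544 in controls and 1198.5, 1278 and 1130.2 with ascites, a log2 difference of -0.34 ± 0.06 (limma adjusted p 0.0198, and 0.0982 with TOV21G fitted alone). In limma on both lines together, SQLE and MSMO1 were the genes of the 9 that fell in both lines. Over all 17616 tested genes, limma called 21 lower in both lines. edgeR and DESeq2 called DHCR7 lower in both as well.

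DHCR7 had 1593, 1379.7 and 1336 normalised counts in TOV21G controls and 1126, 1193 and 999.6 with ascites. Its log2 difference was -0.38 ± 0.07 (limma adjusted p 0.0304, and 0.206 with TOV21G fitted alone). The lowest control and the highest ascites library were 143 counts apart.

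CYP51A1 had the most negative mean difference in TOV21G and was not called. Its normalised counts were 434, 337 and 349 in controls and 268, 272 and 282 with ascites, which do not overlap. The log2 difference was -0.44 ± 0.11, with adjusted p-values of 0.165 from limma, 0.121 from edgeR and 0.0178 from DESeq2. GENCODE release 29 places other annotated genes on 83.2% of its exon bases (AC000120.2 and AC000120.3 on the same strand, CYP51A1-AS1 on the other), so that its counts are uncertain in both lines.

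LSS in TOV21G had 2468, 2235 and 2176 normalised counts in controls and 2032.5, 2119 and 1910.5 with ascites. The groups stood apart, but by 56 counts only, and limma's adjusted p was 0.304 for a log2 difference of -0.18 ± 0.06. TM7SF2 had 379, 359 and 396 in controls and 335, 365 and 353 with ascites, with overlap. NSDHL (771, 684 and 740.2 in controls, 621, 720.3 and 582 with ascites) and EBP (1303, 1155 and 1168 in controls, 1014, 1156 and 1094 with ascites) overlapped by 1 library each. HSD17B7 was at 127, 144 and 132 in controls and 119, 134.5 and 134.2 with ascites. It shares sequence with the pseudogene HSD17B7P2 (8.18 to 36.7 normalised counts over all libraries), and reads could be split between them. Of the 9 genes, 5 had all ascites libraries below all controls in TOV21G, against 6.99% of all tested genes.

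**Figure D2:**
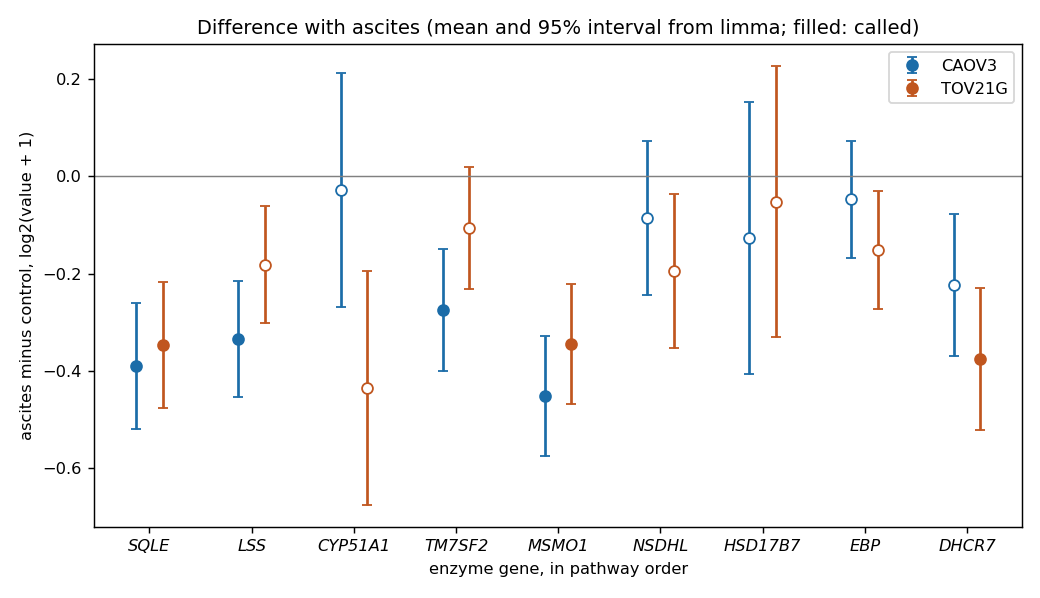
Ascites minus control on the log2(value + 1) scale (vertical axis) for each enzyme gene in pathway order, in CAOV3 and TOV21G, with the 95% interval from limma and filled points for called genes. All 18 points lie below 0, SQLE and MSMO1 are filled in both lines, and the intervals of CYP51A1 and HSD17B7 are the widest.

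Libraries within the TOV21G groups were spread along an axis shared by many genes, and the 9 genes varied with it. Within the TOV21G groups, the leading principal component of the deviations from group means held 50.5% of their variance over 11886 genes, against 31.2% within the CAOV3 groups. Control 1 (13.9) and ascites 2 (12.6) lay at one end of it, and control 2 (-12.0) and ascites 3 (-9.85) at the other. On average over the 9 genes, control 1 lay 0.081 and ascites 2 lay 0.082 above their group means on the log2 scale, and control 2 and ascites 3 lay 0.055 and 0.049 below. Control 1 held the highest value of its group in 7 of the 9 genes and ascites 2 in 8. How often these libraries were highest over all tested genes was not counted, so the counts are not read as particular to the 9. Without control 1 and ascites 2, an alternative chosen after seeing the data, SQLE, MSMO1 and DHCR7 were again the genes called lower in TOV21G, with limma adjusted p-values of 0.0264, 0.0255 and 0.00841. The same alternative called DHCR7 lower in CAOV3 also (0.0127), which made 5 genes there.

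**Figure D3:**
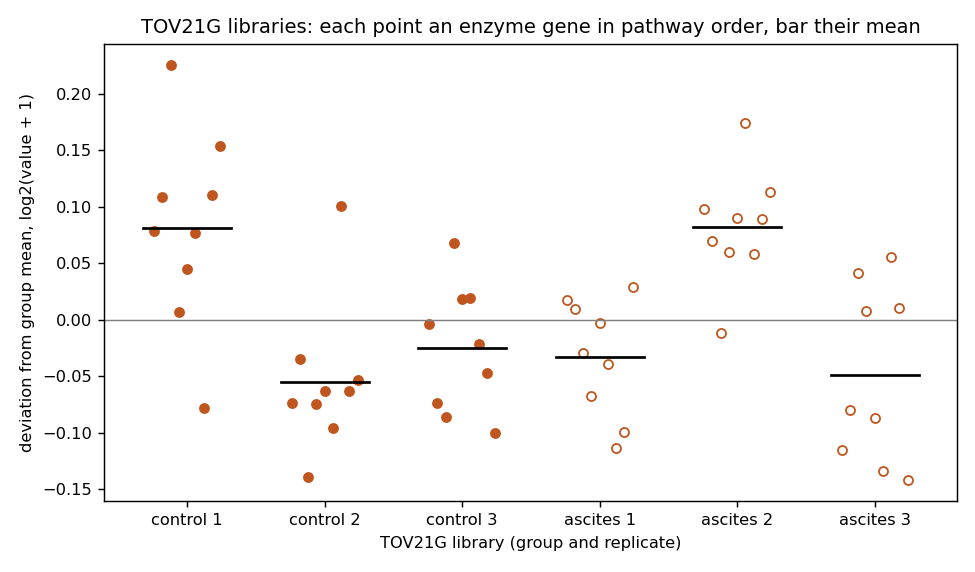
Deviation of each enzyme gene from the mean of its group, on the log2(value + 1) scale (vertical axis), in the 6 TOV21G libraries, with genes in pathway order within a library and a bar at their mean. Control 1 and ascites 2 lie above 0 for nearly every gene, with means of 0.081 and 0.082.

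The lines were then compared in their response. For none of the 9 genes did limma call the difference between the responses, against 0.545% of all tested genes (96 of 17616). At an unadjusted p under 0.05 there was 1, CYP51A1, and neither edgeR nor DESeq2 called any. For CYP51A1 the response in TOV21G minus that in CAOV3 was -0.41, with a 95% interval of -0.75 to -0.07 and an adjusted p of 0.351. For SQLE it was 0.04 (interval -0.14 to 0.23) and for MSMO1 0.11 (-0.07 to 0.28). For LSS it was 0.15 (-0.02 to 0.32), for TM7SF2 0.17 (-0.01 to 0.35) and for DHCR7 -0.15 (-0.36 to 0.05). For SQLE and MSMO1 the intervals hold no difference as large as the response in either line. For all 9 genes, a call in 1 line and not in the other does not show that the lines differ.

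At baseline, 6 of the 9 genes differed between the lines, all of them lower in TOV21G. DHCR7, TM7SF2, EBP and NSDHL differed most, at 0.310, 0.338, 0.492 and 0.50 of the CAOV3 level in the controls. CYP51A1 (0.770) and LSS (0.878) were lower by less, while SQLE, MSMO1 and HSD17B7 were not called. The count, 6 of 9, stands beside a background of 82.2% of all tested genes called in either direction between the lines (14480 of 17616). A difference between the lines was thus the rule among all genes, and 7294 of the 14480 were lower in TOV21G. These values rest on the same control libraries as the responses above.

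DHCR7 had the largest difference, at 4627 ± 7.05 normalised counts (SD, n = 3) without ascites in CAOV3 and 1436 ± 138 in TOV21G, a log2 difference of -1.69 ± 0.07 (SE; limma adjusted p 2.56e-11). TM7SF2 followed, at 1118 ± 42.7 and 378 ± 18.6, with a log2 difference of -1.56 ± 0.06 (adjusted p 1.17e-11). EBP stood at 2454 ± 86.7 and 1209 ± 81.7 (-1.02 ± 0.06), and NSDHL at 1462 ± 68.4 and 731 ± 44.2 (-0.999 ± 0.07). For these 4 genes every TOV21G control lay below every CAOV3 control, as it did for LSS, while the controls of CYP51A1 overlapped. How many of all tested genes were separated in this way was not counted. With 82.2% of them called between the lines, the separation is not read as particular to these genes.

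SQLE was at 2297 ± 149 normalised counts in untreated CAOV3 and 2322 ± 123 in untreated TOV21G, a log2 difference of 0.02 with a 95% interval of -0.11 to 0.15. MSMO1 was at 1651 ± 105 and 1525 ± 59.0 (-0.11, interval -0.24 to 0.01).

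Per length of merged exons, which allows levels of different genes to be set side by side, the order differed between the lines. In CAOV3 controls DHCR7 led with 1112 ± 1.7 normalised counts per kilobase (SD, n = 3), followed by EBP with 1019 ± 36.0, NSDHL with 732 ± 34.3 and MSMO1 with 571 ± 36.2. SQLE (533 ± 34.7) overlapped MSMO1, and below them came LSS (361 ± 13.4), TM7SF2 (328 ± 12.5), CYP51A1 (135 ± 19.7) and HSD17B7 (26.0 ± 2.41), each apart from its neighbour. In TOV21G controls SQLE (539 ± 28.6), MSMO1 (527 ± 20.4) and EBP (502 ± 33.9) overlapped at the top. NSDHL (366 ± 22.2) overlapped DHCR7 (345 ± 33.1), and DHCR7 overlapped LSS (317 ± 21.3). TM7SF2 (111 ± 5.46) overlapped CYP51A1 (104 ± 14.7), and HSD17B7 was lowest with 28.1 ± 1.80.

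Of the counts per kilobase summed over the 9 genes, DHCR7 gave 23.1% in untreated CAOV3 and 12.2% in untreated TOV21G, and SQLE gave 11.1% and 19.0%. The order depends on the length used: with the longest annotated transcript in place of merged exons, 3 to 5 of the 9 genes kept their rank within a group. CYP51A1 and HSD17B7 were the lowest pair of means in each of the 4 groups under either length. Their counts carry the uncertainty given above, from genes on 83.2% of the CYP51A1 exon bases and from the pseudogene HSD17B7P2. Their low rank is therefore uncertain as well.

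**Figure D4:**
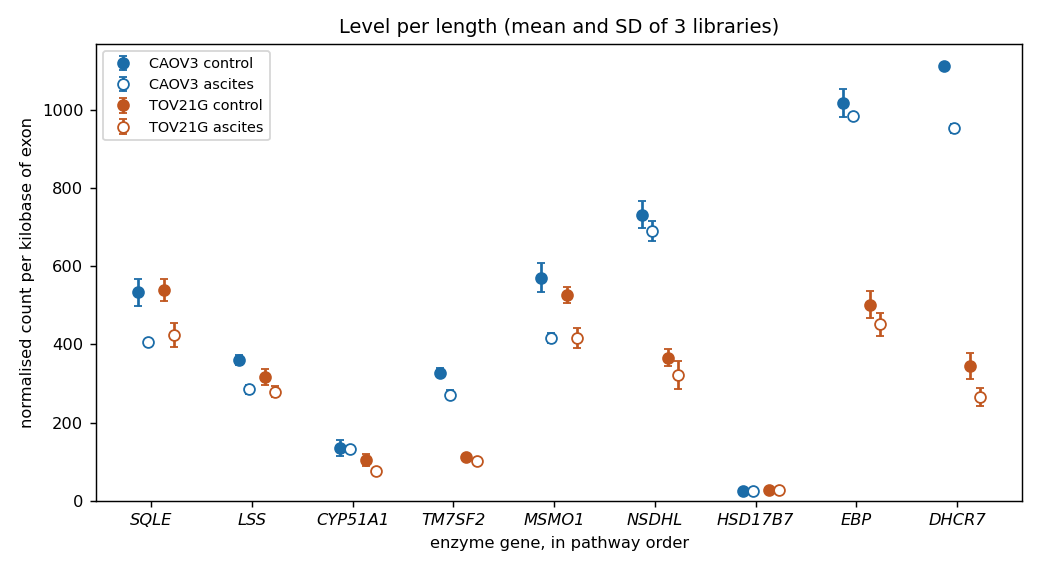
Normalised count per kilobase of exon (vertical axis, linear, from 0), mean and SD of 3 libraries, for each enzyme gene in pathway order in the 4 groups. DHCR7 and EBP lead in CAOV3 at about 1112 and 1019 in controls, while SQLE, MSMO1 and EBP lie together at the top in TOV21G.

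Summed over the 9 genes, CAOV3 held 16829 ± 171 normalised counts in controls and 14253 ± 266 with ascites (SD, n = 3). TOV21G held 10402 ± 610 and 8639 ± 515. The sum ran from 16724 to 17026 and from 14091 to 14560 in CAOV3, and from 9956 to 11097 and from 8168 to 9189 in TOV21G, so that in neither line did the groups overlap. DHCR7 weighs most in the CAOV3 sum, as the gene with the most reads there.

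Other genes of the pathway were counted from lists that were not picked for how they moved here, although earlier results of these data were known. Of 4 other genes of the same section (LBR, SC5D, ERG28, EBPL), limma, edgeR and DESeq2 called none in either line on all libraries, with 2 at an unadjusted p under 0.05 in each line by each tool. With CAOV3 fitted alone limma called 2 of the 4 lower there, SC5D and ERG28, and without control 1 and ascites 2 of TOV21G it called 1, ERG28. Their medians in limma were -0.13 in CAOV3 and -0.13 in TOV21G. SC5D, which encodes the desaturase just before DHCR7, differed between the lines in the direction of TM7SF2 and DHCR7, at 2874 ± 143 against 861 ± 91.4 in controls (log2 difference -1.74, limma adjusted p 9.74e-11). None of the 4 electron donors of the oxygen-using steps (POR, CYB5R3, CYB5A, CYB5B) was called by limma, edgeR or DESeq2 in either line. At an unadjusted p under 0.05 limma gave 0 of these 4, and edgeR and DESeq2 gave 1 in CAOV3.

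Upstream of squalene, 5 of 9 listed genes fell in CAOV3 and 4 of 9 in TOV21G, beside 1.1% and 0.267% of all tested genes called lower. ACAT2, HMGCS1, IDI1 and FDFT1 fell in both, and MVK in CAOV3. IDI1, the isomerase of the isoprenoid units, went from 2759 ± 169 to 1973 ± 96.8 normalised counts in CAOV3 (log2 difference -0.48, limma adjusted p 0.000311) and from 1954 ± 85.6 to 1376 ± 29.2 in TOV21G (-0.50, adjusted p 0.000694). FDFT1, which makes squalene, fell by 0.27 on the log2 scale in CAOV3 and by 0.37 in TOV21G. MVD, FDPS, PMVK and GGPS1 were not called by limma in either line. MVD was called lower in CAOV3 by edgeR, by DESeq2 and with CAOV3 fitted alone, and MVK and FDPS in TOV21G by DESeq2. With TOV21G fitted alone limma called 1 of the 9 listed genes lower there, IDI1. The list's medians were -0.25 in CAOV3 and -0.25 in TOV21G.

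Of 7 sterol sensing genes, 3 fell in both lines, beside 21 of all 17616 tested genes. These were SREBF2, which encodes SREBP-2, SREBF1, which encodes its relative SREBP-1, and INSIG1, which holds them in the endoplasmic reticulum. INSIG1 went from 1460 ± 69.2 to 801 ± 33.2 normalised counts in CAOV3 (log2 difference -0.87, limma adjusted p 8.27e-07) and from 1319 ± 40.0 to 901 ± 29.6 in TOV21G (-0.55, adjusted p 0.000199). SREBF2 fell by 0.34 on the log2 scale in CAOV3 and by 0.39 in TOV21G. SCAP, INSIG2, MBTPS1 and MBTPS2 were not called in either line. With TOV21G fitted alone SREBF1 was no longer called there, which left 2 of 7.

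Of 4 genes of sterol uptake and transport (NPC1, NPC2, STARD4, MYLIP), STARD4 fell in both lines, beside 21 of all 17616 tested genes. STARD4, which carries sterols between membranes, went from 664 ± 86.6 to 400.2 ± 7.78 normalised counts in CAOV3 (log2 difference -0.72, limma adjusted p 0.000293) and from 827 ± 23.5 to 625 ± 30.1 in TOV21G (-0.40, adjusted p 0.0451). The TOV21G call of STARD4 was lost with TMM scaling and without control 1 and ascites 2 of TOV21G. Of 8 listed genes of esterification, hydroxylation and export, 6 were tested. limma, edgeR and DESeq2 called none of the 6, with 1 in CAOV3 and 0 in TOV21G at an unadjusted p under 0.05 in limma. ABCA1, the cholesterol exporter, had a log2 difference of -0.07 in CAOV3 and 0.08 in TOV21G. None of the genes of MARCHF6 and UBXN4, which act in the turnover of squalene epoxidase protein, was called by the 3 tools, and none was at an unadjusted p under 0.05.

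**Figure D5:**
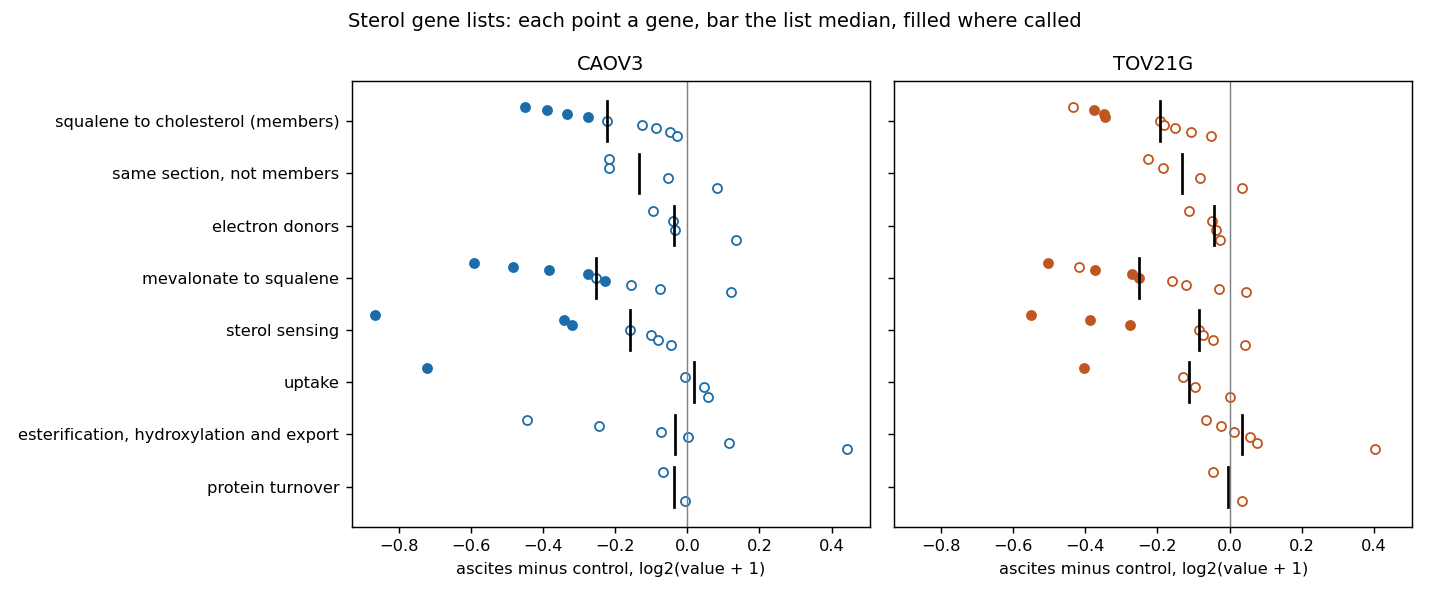
Ascites minus control on the log2(value + 1) scale (horizontal axis) for each gene of the 9 enzymes and of the 7 other sterol gene lists, in CAOV3 and TOV21G, with a bar at the list median and filled points for called genes. The filled points all lie below 0, and the lists of the same section, of electron donors, of esterification, hydroxylation and export and of protein turnover hold none.

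Genes whose pattern over the 12 libraries was most like the mean of the 9 were found by the root mean square difference of log2 values, each gene taken relative to its own control mean in each line. Among 11877 other genes with a mean of at least 100 normalised counts, the closest were ACAT2 (0.0278), THRA (0.0292), FURIN (0.0380), EPB41L1 (0.0393) and MXD4 (0.0394), against a median of 0.182. The 9 genes themselves lay 0.0740 (LSS) to 0.176 (CYP51A1) from their own mean. The mean of the 9 was -0.22 with ascites in CAOV3 and -0.24 in TOV21G, and a mean of several genes varies less than a single gene, which bears on these distances.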

How the data were processed

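RNA was sequenced from 12 libraries, 3 for each of 4 groups. Per the submitters' processing notes, reads passed through Trim Galore, cutadapt, STAR, HTSeq and DESeq. Their versions, the genome build, the annotation and the strandedness are not given in the sources used here. The authors deposited 1 signal per gene and library, a normalised read count. Dividing by its step recovered whole reads (all values whole within 0.001 reads), and the reciprocals of the steps match median-of-ratios size factors over all 12 libraries. Gene names came from a gene name table (19087), GENCODE release 29 (136) or stayed absent (28), and positions from GENCODE.

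The tests were computed here with limma 3.58.1 in R 4.3.3 (lmFit, eBayes with a trend) on log2(value + 1), which understates changes of low genes. The model held all 12 libraries, a term for each group and no block, over 17616 genes with a value of at least 10 in at least 3 libraries. P-values are two-sided, adjusted by the Benjamini-Hochberg method over all tested genes and called under 0.05. Alternatives were edgeR 4.0.16 (quasi-likelihood, TMM) and DESeq2 1.42.0 on the recovered reads, other pseudocounts, no filter, TMM scaling, a replicate block, each line alone and each library left out. The procedure was run on simulated counts, with changes placed in CAOV3 ascites only and larger than those of the 9 genes. Libraries were drawn independently, without the shared axis seen within the TOV21G groups. The outcome is not given here and cannot show whether changes of the size seen would be detected. Lengths are merged exons of all annotated transcripts. The members and lists were chosen with earlier results of these data known. Named are all 9 members, genes of the listed pathways (some are not reported here and were left out of the list counts) and the 5 most similar other genes. Single libraries were not tested as outliers, since each group holds 3.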

Additional observations from a re-analysis of the deposited data

How the results depend on the processing

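The number of the 9 genes called in CAOV3 stayed between 3 and 5 over all alternatives, the number called between the lines at baseline between 6 and 7, and the number with a called difference of response at 0. The number called in TOV21G was 3 with both other pseudocounts, with no filter, with TMM scaling and with edgeR, 4 with DESeq2, 0 with TOV21G fitted alone, 0 with the replicate block and 0 to 3 with 1 library left out. By construction the block and the fit of TOV21G alone have fewer degrees of freedom, and the cause was not tested further. Leaving out 1 library also gave 1 call without each CAOV3 ascites library in turn and 2 without each CAOV3 control, which enter the TOV21G result through the shared spread. TOV21G calls were kept in 5 of 12 such fits for SQLE, 8 for MSMO1 and 2 for DHCR7. In CAOV3 they were kept in all 12 for SQLE, LSS and MSMO1 and in 6 for TM7SF2. The labels do not say whether a replicate number marks a shared day or batch. Deviations of same-numbered control and ascites libraries correlated at -0.069, 0.060 and 0.014 in CAOV3 and -0.165, -0.417 and 0.073 in TOV21G. So few values cannot decide whether the samples are paired. With the replicate block 3 genes were called in CAOV3 (TM7SF2 at an adjusted p of 0.160). Of the other listed genes, the block lost ACAT2 and FDFT1 in CAOV3 (5 calls upstream of squalene became 3), and ACAT2, HMGCS1, FDFT1 (4 became 1), SREBF1 and STARD4 in TOV21G. Over all genes, the 305 called in CAOV3 became 511 with edgeR, 507 with DESeq2, 1295 with CAOV3 alone, 116 with the block, 614 with both TOV21G libraries left out and 172 to 344 with 1 library left out. The 72 called in TOV21G became 114, 151, 22 (TOV21G alone), 13, 98 and 24 to 136 in the same order. The 96 called differences of response became 148, 210, 9 (block), 178 and 40 to 146, and 151 with TMM scaling.

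Signs turned only for differences near 0 that were not called, with 1 library left out: CYP51A1 in CAOV3 (-0.148 to 0.0629), HSD17B7 in TOV21G (-0.0913 to 0.00463), the difference of response of SQLE (-0.00997 to 0.101) and HSD17B7 (-0.000191 to 0.205), and the baseline difference of SQLE (-0.0226 to 0.0695, and -0.0226 with both TOV21G libraries left out). HSD17B7, at 103 to 144 normalised counts, has the least depth, and its sampling error of 8.20% to 9.63% (CV) limits what could be detected.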
